A study of Mus musculus with 16 samples.

Results

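The Prdm family genes described here are Prdm4, Prdm14, Prdm1, Prdm2, Prdm10, Prdm15 and Mecom. Every probe that the platform annotation pairs with 1 of these 7 symbols was taken, which gave 16 of the 45281 probes on the array and 7 of the 19057 genes that it names. Total RNA of mouse embryonic stem cells of strain 129/Sv was hybridised to Illumina Mouse WG-6 v2 bead arrays, in 3 groups. The 4 Prdm4 null arrays have the genotype Prdm4∆ZF/∆ZF, in which the exons that encode the zinc finger domain are deleted on both alleles. The study describes a shortened transcript from this allele. The 6 Prdm4-EGFP arrays are of stably transfected clones in which a constitutive pCAGGS vector drives full-length Prdm4 fused to enhanced green fluorescent protein. The methods name both unmodified CCE cells and null cells as hosts for transfection, and the labels do not give the host of each clone. The 6 wild-type arrays have the genotype Prdm4+/+. The design text counts 1 clone for each array, but whether these clones were derived independently is not given, so p-values measure only the spread between these arrays.

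PRDM proteins carry an amino-terminal PR domain related to the SET domain of histone methyltransferases, followed in nearly all members by an array of zinc fingers that binds DNA. Most act by recruiting chromatin-modifying enzymes rather than by methylating histones themselves. In the early mouse embryo the family is best known for Prdm1 and Prdm14, which specify the germ cell lineage, and in embryonic stem cells (ESCs) for Prdm14, which protects the pluripotent state. Prdm4, also called SC1, was first found as a partner of the neurotrophin receptor Ngfr in the rat.

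The study identified GAAAC as the best conserved stretch of the sequence that the Prdm4 zinc fingers bind. Promoter windows of 300 bases (250 before and 50 after a transcription start) from RefSeq, assembly GRCm38.p6, were therefore searched for it on both strands in 9 windows that matched 5 of the members. Prdm14 and Prdm2 are named only. GAAAC occurred in 4 of these 9 windows, against 45% of all 32851 promoter windows. The longer string CTNGAAAC occurred in 0 of the 9, against 3.83% of all. The sites that lie before a start are given as 30 bases on the strand of the gene, 5′ to 3′, because they are the places in the family's own promoters where these letters stand. Capitals mark GAAAC, or GTTTC where it lies on the other strand.
Prdm4, chr10:85917003-85917032, minus strand, 34 bases before the start: gctgggaagccgGAAACgggcccggagtgg
Prdm10, chr9:31313352-31313381, plus strand, 63 bases before the start: ccctttgtggttGAAACtaatgtattaaaa
Prdm15, chr16:97852018-97852047, minus strand, 185 bases before the start: aatcacgcagccGTTTCctgggctctctgg
Mecom, chr3:30013424-30013453, minus strand, 237 bases before the start: gatttccctgggGAAACaaatcctgcctgg
Mecom, chr3:30013365-30013394, minus strand, 178 bases before the start: agaaatctacatGTTTCtggggatggtgca
The study describes a longer motif in which GGG and CT precede GAAAC, and it proposes that GAAAC alone is not enough for Prdm4 to bind. A match describes letters only. Binding at these places was not analysed here.

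Levels are normalised log2 intensities, and a probe counts as detected where its detection p-value, which compares it with the negative control beads of the same array, is under 0.01. Between 13894 and 14905 probes were detected per array. The leading principal component of the 15356 tested probes held 52.2% of the variance, with scores of 36.2 to 42.1 for null arrays and -18.3 to -8.81 for the other 12 arrays. The second component (13.1%) divided the wild-type group, with scores of 17.1 to 31.8 for its arrays 1, 5 and 6 and of -6.46 to 2.32 for its arrays 2, 3 and 4. All 10 of the ESC markers examined were detected on every array. Of 9 fibroblast markers, which would mark feeder cells, 7 were detected on no array, among them the collagens Col1a1, Col1a2 and Col3a1.

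Of the 7 family members, 5 were measurable in these cells. Prdm4, Prdm14, Prdm2, Prdm15 and Mecom had 7 probes that were detected on at least 4 arrays and were tested. Prdm1 and Prdm10 had 2 probes each, all detected on no array. Prdm14 had a further probe, Prdm2 a further probe and Mecom 3 further probes that were also detected on no array. In Prdm4 null cells 2 of the 5 genes, Prdm4 and Prdm14, fell and 0 rose, by limma with Benjamini-Hochberg adjustment over all tested probes. Over all 8707 tested genes, 21.2% fell and 22.9% rose in the same comparison. In Prdm4-EGFP against wild-type cells 0 of the 5 genes passed the test, with 2.19% of all tested genes lower and 1.9% higher. At an unadjusted p under 0.05, both Prdm2 probes were lower in Prdm4-EGFP cells and no other member probe differed. In Prdm4-EGFP against Prdm4 null cells the same 2 genes were higher and 0 lower, with 23.6% of all tested genes higher and 25.2% lower. The median log2 difference over the 5 genes was -0.11 in null against wild-type cells, 0.06 in Prdm4-EGFP against wild-type cells and 0.01 in Prdm4-EGFP against null cells, beside 0.02, 0.00 and -0.01 over all tested genes. The comparisons share arrays, so they do not count as separate evidence.

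**Figure D1:**
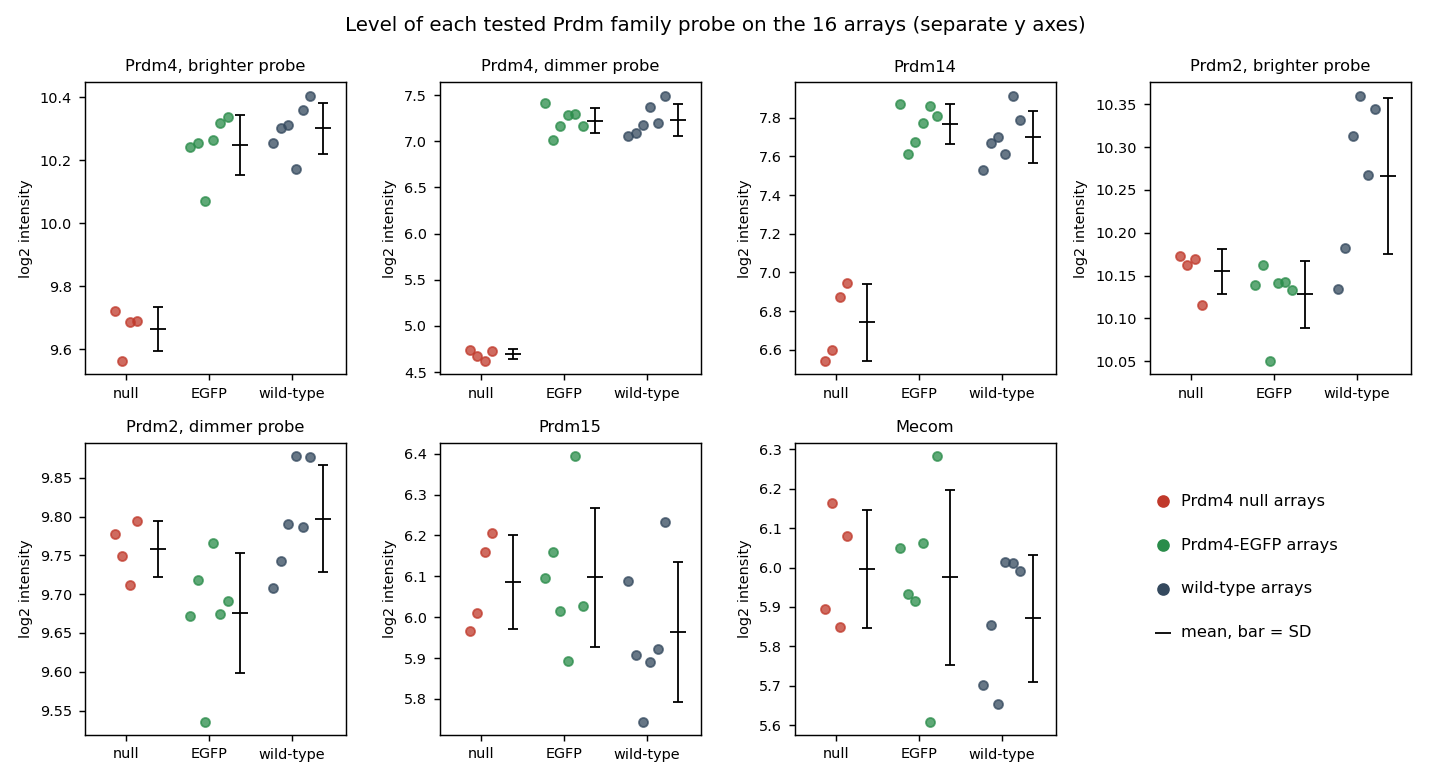
Normalised log2 intensity (y axis, a separate scale in each panel) of the 7 tested Prdm family probes on each of the 16 arrays, with Prdm4 null, Prdm4-EGFP and wild-type arrays from left to right. Points are arrays, and the bar beside them is the mean with its SD. Both Prdm4 probes and Prdm14 lie lower on all 4 null arrays than on any other array, and the remaining probes overlap between groups.

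Prdm4, the targeted gene, was lower on all null arrays. Its brighter probe (ILMN_2945238) had levels of 9.72, 9.56, 9.69 and 9.69 on the null arrays. On the Prdm4-EGFP arrays it had 10.24, 10.26, 10.07, 10.26, 10.32 and 10.34, and on the wild-type arrays 10.26, 10.30, 10.31, 10.17, 10.36 and 10.40. The null arrays were all lower than the others, while the Prdm4-EGFP and wild-type arrays overlapped. The level was 9.67 ± 0.07 in null cells (SD, n = 4), 10.25 ± 0.09 in Prdm4-EGFP cells (SD, n = 6) and 10.30 ± 0.08 in wild-type cells (SD, n = 6). In null against wild-type cells the log2 difference was -0.63 (SE 0.07, limma adjusted p = 6.04e-07), 1.55-fold lower. An exact two-sided permutation test over the arrays gave p = 0.00476, the smallest that this design allows. In bulk RNA, fewer cells that express a gene and less RNA per cell cannot be told apart.

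The dimmer Prdm4 probe (ILMN_2524723) was not detected in null cells. It had levels of 4.74, 4.68, 4.62 and 4.73 on the null arrays, with detection p-values of 0.172 to 0.253, and was therefore not above background on any of them. It had 7.41, 7.02, 7.16, 7.29, 7.30 and 7.17 on the Prdm4-EGFP arrays and 7.06, 7.09, 7.17, 7.37, 7.20 and 7.49 on the wild-type arrays, and was detected on all 12 of these. With each null array set to the lowest level called detected on that array, the transcript region read by this probe was at least 3.19-fold lower in null than in wild-type cells. The levels as fitted, without this bound, gave a limma adjusted p of 1.25e-12 and an exact permutation p of 0.00476. The annotation used here does not place the probes on the transcript, so whether either lies in the deleted exons or reads the transgene is not known. The brighter probe kept a clear signal on the null arrays, between 824.7 and 1044 scanner units, whereas the dimmer one had 61.85 to 72.2 scanner units.

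Neither probe was higher in the cells that carry the transgene. In Prdm4-EGFP against wild-type cells the brighter probe differed by -0.05 on the log2 scale (95% interval -0.18 to 0.07, limma adjusted p = 0.717) and the dimmer by -0.01 (95% interval -0.17 to 0.16, limma adjusted p = 0.984). In Prdm4-EGFP against null cells the brighter probe was higher by 0.58 (SE 0.07, limma adjusted p = 1.44e-06). The dimmer was at least 3.18-fold higher (limma adjusted p = 1.3e-12 for the levels as fitted, without this bound). With the probe positions unknown, these values check neither the null nor the Prdm4-EGFP label by themselves.

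Genes next to Prdm4 on chromosome 10 changed in both directions. Of the 10 nearest tested genes, 5 on each side in the order of the GRCm38.p6 annotation, 2 rose and 1 fell in null cells, near the 22.9% and 21.2% of all tested genes, and the median difference was 0.06. Timp3, an inhibitor of matrix metalloproteinases, rose by 1.12 (SE 0.12, limma adjusted p = 1.1e-06) and Btbd11 by 0.24 (SE 0.09, limma adjusted p = 0.0348). Ric8b, a chaperone of G protein alpha subunits, fell by 0.38 (SE 0.10, limma adjusted p = 0.00477). The flanking genes Pwp1 and Rtcb, the RNA ligase of tRNA splicing, differed by -0.03 and -0.01. Over the other 421 tested genes of chromosome 10 the median was 0.05, and 16 of them (3.8%) had a lower difference than Prdm4.

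Prdm14 was the other member that fell. In mouse ESCs the Prdm14 protein represses fibroblast growth factor receptor signalling and the de novo DNA methyltransferases, and it is needed for germ cell specification. Its tested probe (ILMN_1222112) had levels of 6.54, 6.60, 6.88 and 6.95 on the null arrays. It had 7.87, 7.61, 7.68, 7.77, 7.86 and 7.81 on the Prdm4-EGFP arrays and 7.53, 7.67, 7.70, 7.61, 7.91 and 7.79 on the wild-type arrays. Every null array was lower than every other array, and the Prdm4-EGFP and wild-type arrays overlapped. The log2 difference of null from wild-type cells was -0.96 (SE 0.09, 95% interval -1.15 to -0.77, limma adjusted p = 2.03e-07), 1.95-fold lower, with an exact permutation p of 0.00476. Prdm4-EGFP cells differed from wild-type cells by 0.06 (95% interval -0.11 to 0.24, limma adjusted p = 0.758) and from null cells by 1.03 (SE 0.09, limma adjusted p = 7.53e-08).

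Null arrays 1 and 2 were lower in Prdm14 than null arrays 3 and 4, by 0.34 on the log2 scale. Prdm15 was also lower there without overlap (-0.19), while the Prdm4 (-0.05 and 0.03), Prdm2 and Mecom probes showed no such split. On the wild-type arrays, numbers 1 and 2 lay below the rest for the dimmer Prdm4 probe (-0.23) and both Prdm2 probes (-0.16 and -0.11). The other member probes, Prdm14 among them, overlapped there. The labels name no batch, but every group has arrays numbered 1 and 2 and arrays with higher numbers. Fitted on the arrays numbered 1 and 2 alone, the Prdm14 difference of null from wild-type cells was -1.03 (SE 0.13, limma adjusted p = 0.00413), and on the arrays numbered 3 and above it was -0.84 (SE 0.10, limma adjusted p = 0.000121). With wild-type arrays 2, 3 and 4 as the only controls it was -0.92 (limma adjusted p = 4.7e-06). The other Prdm14 probe had a mean of 4.52 in null cells, 4.75 in Prdm4-EGFP cells and 4.72 in wild-type cells, and its lowest detection p-value on any array was 0.094, so no fold can be read from it.

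Of all 15356 tested probes, 14.6% had every null array lower than every wild-type array, as 3 of the 7 Prdm family probes did. In Prdm4-EGFP against null cells 18.5% of all tested probes lay higher without overlap, again with both Prdm4 probes and Prdm14 among them. Between Prdm4-EGFP and wild-type cells 2.22% of all tested probes did not overlap, in either direction, and all 7 Prdm family probes overlapped.

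**Figure D2:**
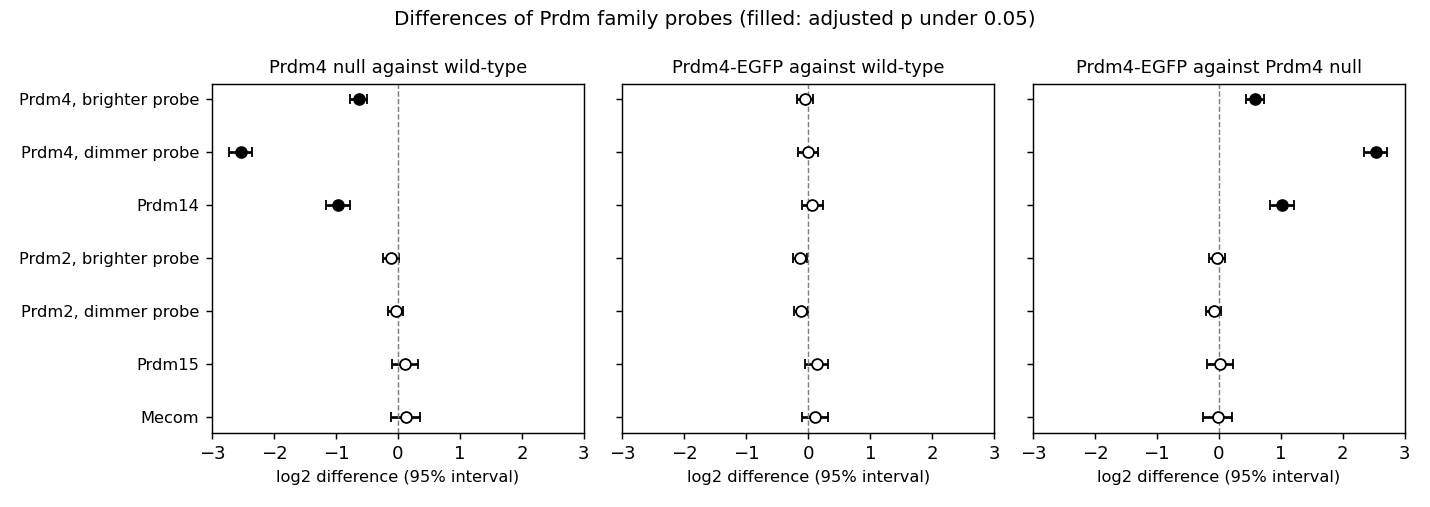
Log2 difference (x axis) of each tested Prdm family probe in the 3 comparisons, with its 95% interval. Filled points have a limma adjusted p under 0.05 over all tested probes. Both Prdm4 probes and Prdm14 lie below 0 in null against wild-type cells (-0.63, -2.54 and -0.96), near 0 in Prdm4-EGFP against wild-type cells and above 0 in Prdm4-EGFP against null cells. The dimmer Prdm4 probe was not detected above background on any null array, so its -2.54 is the fitted value and not a measured fold.

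Prdm14 lies on chromosome 1, where genes were lower in null cells in general. Over the other 425 tested genes of that chromosome the median log2 difference was -0.40 (quartiles -0.64 and -0.19), with 288 lower and 22 higher, against a median of 0.03 over the genes of all other chromosomes. Prdm14, at -0.96, was below this median, and 25 of the 425 genes (5.88%) were lower still. Relative to the wild-type mean, Prdm14 stood at -1.16, -1.10, -0.83 and -0.76 on null arrays 1 to 4, and the chromosome 1 median at -0.42, -0.40, -0.40 and -0.37. The part of the chromosome-wide shift in the Prdm14 difference was not tested. The median of the same 425 genes was 0.00 in Prdm4-EGFP against wild-type cells.

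The 10 nearest tested neighbours of Prdm14 were uneven. In null cells 5 fell and 0 rose, with a median of -0.26. Of the other 425 tested genes of chromosome 1, 288 fell and 22 rose, with a median of -0.40. Of all tested genes 21.2% fell and 22.9% rose. Msc, a basic helix-loop-helix repressor of muscle genes, had the deepest value, -2.04 (SE 0.13, limma adjusted p = 2.06e-09), with means of 8.40 in null and 10.44 in wild-type cells. Eloc, the elongin C subunit of ubiquitin ligases, fell by 0.70, Cops5, the catalytic subunit of the COP9 signalosome, by 0.65, Tram1, a protein of the translocon in the endoplasmic reticulum, by 0.56 and the kinase gene Sgk3 by 0.32. The remaining 5, Sulf1, Cspp1, Terf1, Stau2 and Prex2, did not pass the test, with differences between -0.20 and 0.09. Sulf1 and Tram1, the tested genes on either side of Prdm14, had 0.09 and -0.56. Prex2 was the 1 neighbour of the 10 that passed the test in Prdm4-EGFP against wild-type cells, with -1.38 (SE 0.30, limma adjusted p = 0.0148).

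**Figure D3:**
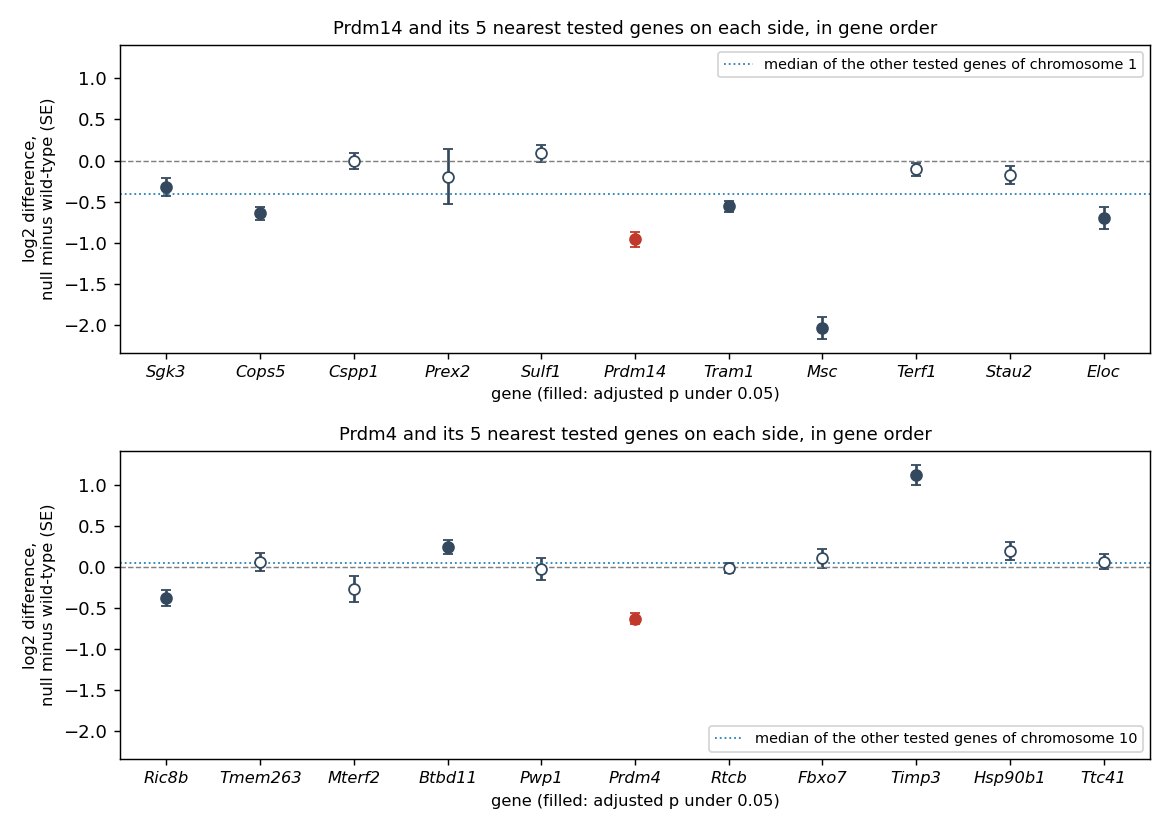
Log2 difference of Prdm4 null minus wild-type cells with its SE (y axis) for Prdm14 (upper panel) and the brighter Prdm4 probe (lower panel), each in red between its 5 nearest tested genes on both sides in chromosome order. Filled points have a limma adjusted p under 0.05, and the dotted line is the median of the other tested genes of that chromosome (-0.40 for chromosome 1, 0.05 for chromosome 10). Prdm14 and 5 of its 10 neighbours fell, on a chromosome where 288 of the other 425 tested genes fell. Prdm4 stands below neighbours that lie near 0 in most cases.

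Genes described as lying downstream of Prdm14 in ESCs were taken as a list. Of its 12 tested genes, 7 rose, 3 fell and 2 (Dnmt1 and Klf2) did not pass the test in null cells, where 22.9% of all tested genes rose and 21.2% fell. The median was 0.40 beside 0.02 over all tested genes, and no enrichment was tested. Fgfr2, a fibroblast growth factor receptor that Prdm14 represses, had a level of 9.02 ± 0.06 in null cells (SD, n = 4) and 6.47 ± 0.51 in wild-type cells (SD, n = 6), a rise of 2.55 (SE 0.20, limma adjusted p = 1.57e-08). Fgf5, a marker of primed epiblast, was above background in null cells at 5.92 ± 0.17 and not in wild-type cells. It was at least 1.25-fold higher in null cells (limma adjusted p = 3.37e-09 for the levels as fitted, without this bound). Klf5 and Nanog, transcription factors of the pluripotent state, fell by 1.10 (SE 0.11) and 0.85 (SE 0.09), with limma adjusted p of 2.31e-07 and 4.9e-07. The de novo methyltransferase gene Dnmt3b rose by 0.47, Dnmt3l, which encodes a catalytically inactive cofactor of these enzymes, by 0.34, and Tet1, which oxidises methylcytosine, by 0.71. Uhrf1 of the same list fell by 0.28 (SE 0.11, limma adjusted p = 0.0426). Dnmt3a, Fgfr1 and Gata4 of the list were on the array but not tested. The test was passed by 0 of the 12 in Prdm4-EGFP against wild-type cells, where the median was -0.06. Against null cells, 3 of the 12 were higher and 6 lower in Prdm4-EGFP cells. Nanog, Klf5 and Gata6 were also examined in the study on these cells, which reports Prdm4 binding near Klf5, so the list is no independent evidence. The fall of Prdm14 in null cells was reported there too. By quantitative PCR, the study also describes pluripotency markers as higher in Prdm4-EGFP cells. On these arrays Prdm14 (0.06) and Nanog (-0.11) did not pass the test in Prdm4-EGFP against wild-type cells.

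Markers of primed epiblast were higher in null cells, where Prdm14 was lower. All 6 of the list (Fgf5, Otx2, Pou3f1, Dnmt3b, Cldn6 and Sall2) rose in null cells. The share to set beside this and the marker counts below is 22.9% of all tested genes that rose and 21.2% that fell. The summed linear level of the 6 markers was 10910 to 11400 on null, 5313 to 6801 on Prdm4-EGFP and 6185 to 7187 on wild-type arrays. Most of this sum is Dnmt3b, which had mean log2 levels of 12.92 in null and 12.45 in wild-type cells. Of 10 ESC markers, 2 rose and 4 fell, with summed levels of 49060 to 51650 on null, 53750 to 56820 on Prdm4-EGFP and 52440 to 55810 on wild-type arrays. Of 9 primitive endoderm markers, Gata4, Sox17 and Foxa2 were detected on no array. Of the 5 that were tested, 3 rose and 1 fell, and the summed levels overlapped (1897 to 2021 on null, 1536 to 2401 on Prdm4-EGFP and 1502 to 1936 on wild-type arrays). Of 7 trophoblast markers, 5 were detected on no array, among them Cdx2, Eomes and Elf5, and the other 2, Krt8 and Krt18, rose, with summed levels of 402.6 to 464.3 on null, 250.2 to 320.4 on Prdm4-EGFP and 262.5 to 315.8 on wild-type arrays. The 9 fibroblast markers, of which Thy1 and Fn1 were detected, had summed levels of 984.5 to 1191 on null, 1377 to 1541 on Prdm4-EGFP and 1352 to 1523 on wild-type arrays. The part of the state of the cells in the Prdm14 difference was not tested.

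**Figure D4:**
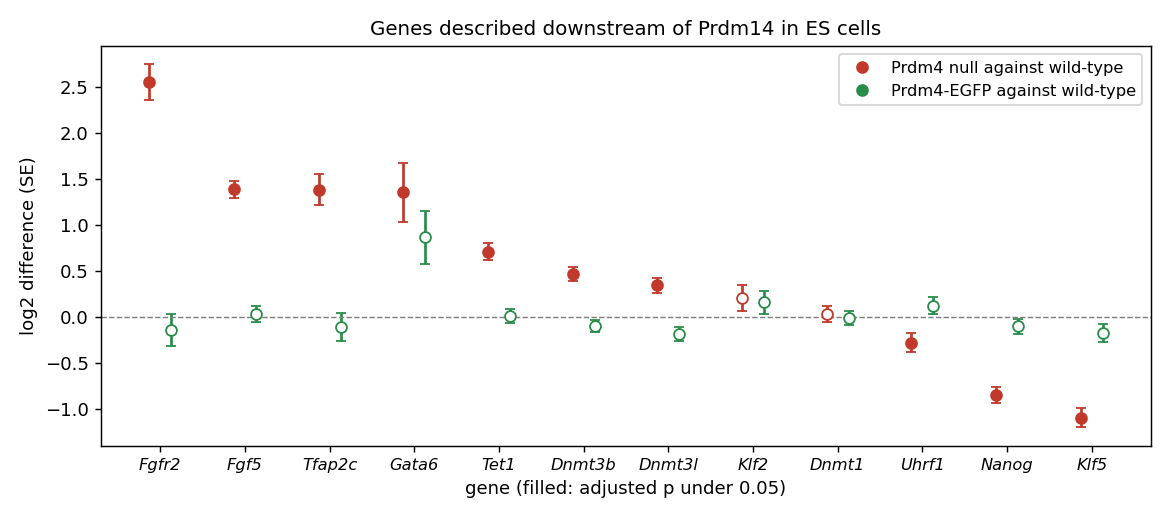
Log2 difference with its SE (y axis) of the 12 tested genes described downstream of Prdm14, for Prdm4 null against wild-type cells (red) and Prdm4-EGFP against wild-type cells (green), ordered by their difference in null cells. Filled points have a limma adjusted p under 0.05. In null cells 7 genes rose and 3 fell, and in Prdm4-EGFP cells 0 passed the test.

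Prdm1, known as Blimp1, the repressor that founds the germ line and drives plasma cell differentiation, was not detected. Its probes had levels between 4.36 and 4.97 over all 16 arrays, with a lowest detection p-value of 0.0865. At this signal over background a difference was not measurable. Of 9 tested genes that act with Prdm1 in germ cell specification or mark it, 3 rose and 3 fell in null cells, with a median of 0.10. Over all tested genes 22.9% rose and 21.2% fell, with a median of 0.02. Tfap2c, a transcription factor of the germ line and trophoblast, rose by 1.38 (SE 0.17, limma adjusted p = 4.65e-06) and the membrane protein gene Ifitm3 by 0.55 (SE 0.10, limma adjusted p = 0.000252). Kit, the stem cell factor receptor, fell by 1.33 (SE 0.09, limma adjusted p = 4.71e-09), and Nanog fell as given above. Of 6 germ cell markers, Dppa3 was detected on no array. Of the 4 that were tested, 1 (Tfap2c) rose and 1 (Kit) fell in null cells. Tfap2c had means of 10.95 in null and 9.57 in wild-type cells, and Kit 7.85 and 9.18. The summed levels of the 6 markers were 2233 to 2692 on null, 1489 to 1895 on Prdm4-EGFP and 1361 to 1814 on wild-type arrays. Kit was the 1 gene of this list that passed the test in Prdm4-EGFP against wild-type cells, higher by 0.32 (SE 0.08, limma adjusted p = 0.038).

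Prdm2, or Riz1, a histone methyltransferase with tumour suppressor function, had 2 bright probes. The brighter (ILMN_1250454) had 10.17, 10.16, 10.17 and 10.12 on the null arrays, 10.14, 10.16, 10.05, 10.14, 10.14 and 10.13 on the Prdm4-EGFP arrays and 10.13, 10.18, 10.31, 10.36, 10.27 and 10.34 on the wild-type arrays. Wild-type arrays 3 to 6 were higher than every other array, wild-type array 2 lay just above the null and Prdm4-EGFP arrays, and wild-type array 1 lay among them. The difference from wild-type was -0.11 in null cells (95% interval -0.24 to 0.01, limma adjusted p = 0.14) and -0.14 in Prdm4-EGFP cells (95% interval -0.25 to -0.03, limma adjusted p = 0.159). On the values that the authors normalised, null cells did pass the test against wild-type cells, with -0.20 (limma adjusted p = 0.0117).

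Among arrays numbered 1 and 2 alone, the brighter Prdm2 probe differed from wild-type by 0.01 in null cells and -0.01 in Prdm4-EGFP cells. Among arrays numbered 3 and above the differences were -0.18 (SE 0.08, limma adjusted p = 0.106) and -0.20 (SE 0.06, limma adjusted p = 0.147). The dimmer probe (ILMN_2707291) had 9.76 ± 0.04 in null cells (SD, n = 4), 9.68 ± 0.08 in Prdm4-EGFP cells (SD, n = 6) and 9.80 ± 0.07 in wild-type cells (SD, n = 6). It differed from wild-type by -0.04 in null cells (limma adjusted p = 0.648) and -0.12 in Prdm4-EGFP cells (limma adjusted p = 0.237). Exact permutation tests of Prdm4-EGFP against wild-type gave p = 0.0108 for the brighter and p = 0.013 for the dimmer probe, unadjusted, and neither probe passed the limma test over all probes.

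Prdm15, which sustains naive pluripotency in mouse ESCs through Wnt and MAPK regulators, was detected near background on all 16 arrays. It had 5.97, 6.01, 6.16 and 6.21 on the null arrays, 6.10, 6.16, 6.02, 5.89, 6.39 and 6.03 on the Prdm4-EGFP arrays and 6.09, 5.91, 5.74, 5.89, 5.92 and 6.23 on the wild-type arrays. The groups overlapped throughout. Its difference from wild-type was 0.12 in null cells (95% interval -0.09 to 0.33, limma adjusted p = 0.361) and 0.13 in Prdm4-EGFP cells (95% interval -0.06 to 0.32, limma adjusted p = 0.478). A fall of the size seen for Prdm14 lies outside both intervals.

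Mecom encodes Evi1 and the longer Mds1-Evi1 protein, regulators of blood stem cells that are activated in leukaemia. Of its 4 probes, 1 (ILMN_2668165) was detected on all 16 arrays. It had 5.89, 6.16, 5.85 and 6.08 on the null arrays, 6.05, 5.93, 5.91, 6.06, 5.61 and 6.28 on the Prdm4-EGFP arrays and 5.70, 5.85, 5.65, 6.01, 6.01 and 5.99 on the wild-type arrays. Again the groups overlapped, and the widest spread was that among Prdm4-EGFP arrays. The difference from wild-type was 0.13 in null cells (95% interval -0.11 to 0.36, limma adjusted p = 0.402) and 0.10 in Prdm4-EGFP cells (95% interval -0.11 to 0.32, limma adjusted p = 0.655). The other 3 probes had levels between 4.34 and 4.76 and were detected on no array.

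Prdm10, a factor that early mouse embryos require, had 2 probes with levels between 4.33 and 5.03 and a lowest detection p-value of 0.0684. Both groups of any comparison lay at background, so no fold is given. Eif3b, a translation initiation factor gene that Prdm10 activates in mouse ESCs, differed by 0.16 in null cells (SE 0.11, limma adjusted p = 0.284). It belongs to a list of genes reported as PRDM targets, of which 5 were tested. Of these, 2 fell and 0 rose in null cells, beside 21.2% and 22.9% of all tested genes. The 2 were the cyclin E genes Ccne1 and Ccne2, with -0.35 (SE 0.08, limma adjusted p = 0.0014) and -0.52 (SE 0.14, limma adjusted p = 0.00525). The study on these cells also reports lower Ccne1 in null cells. Myc, which Prdm1 represses in B cells, differed by -0.05 and Id3 by 0.20, and neither passed the test.

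Cofactors and partners of PRDM proteins formed another list. Of its 15 tested genes, 2 rose, 5 fell and 8 did not pass the test in null cells, beside 22.9% and 21.2% of all tested genes, with a median of -0.15. Ngfr, the neurotrophin receptor that binds Prdm4 in the rat, fell by 0.63 (SE 0.09, limma adjusted p = 1.62e-05). Smad3, which carries transforming growth factor beta signals, fell by 0.34, the histone deacetylase gene Hdac3 by 0.32 and Ezh2, the methyltransferase of Polycomb complexes, by 0.32. Prmt5, the arginine methyltransferase that Prdm4 recruits in neural stem cells, rose by 0.17 (SE 0.06, limma adjusted p = 0.0451). Of the same 15 genes, 0 passed the test in Prdm4-EGFP against wild-type cells.

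The genes whose levels were most like each member over the 16 arrays were found by Pearson correlation across 8706 other genes. These values describe the arrays, which share their groups, and for the genes that fell in null cells they rest on the gap between null and other arrays. For Prdm4 they were Mslnl and Insig2, both with r = 0.976, followed by Tle5. Within groups these correlations were at most 0.675. For Prdm14 they were Hes1 (r = 0.976), Tle5 (r = 0.974) and Acaa2 (r = 0.973), and within groups 0.65, 0.641 and 0.668. Hes1 is the Notch target repressor and Tle5 a corepressor of the Groucho family, and in null against wild-type cells they differed by -1.04 and -1.31. Prdm2 was most like Naprt, Mtap and Pnpla2, with r of 0.833, 0.832 and 0.83. Prdm15 was most like Ak4, Mkrn1 and Fbxo10, with r of 0.813, 0.761 and 0.72. Mecom was most like Actl6b, Cyp11b2 and Fgl1, with r of 0.814, 0.762 and 0.753.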

How the data were processed

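The authors deposited a table of the scanner intensity of each probe on each array, on a linear scale and neither normalised nor background subtracted, with a detection p-value per probe and array. Their rank-invariant normalised intensity, deposited as a further table, is a linear function of the scanner signal on each array and served as an alternative. Of 45281 probes, 34885 had 1 gene symbol in the platform annotation, 18 had several and 10378 had none.

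Scanner intensities were background corrected, quantile normalised and put on the log2 scale with neqc in limma 3.58.1 (R 4.3.3), using the detection p-values and an offset of 16. Testing was limited to the 15356 probes (8707 genes) detected at p under 0.01 on 4 or more of the 16 arrays, each gene being read from its brightest such probe. One fit of all 16 arrays with 3 group means (lmFit, eBayes, two-sided) gave every difference, with Benjamini-Hochberg adjustment over all tested probes within a comparison and a threshold of 0.05. Called, rose and fell refer to that threshold. Each member probe also had an exact two-sided permutation test. A probe undetected throughout a group is reported as a bound, taking for that group the lowest level called detected on each array. The number of arrays limits the precision. The script was tested on simulated data.

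The methods name an error model of the scanner software that was not used here. The members and gene lists were chosen with earlier results of these data known. Named genes were all members, up to 4 genes per list with the smallest p in null against wild-type cells, all tested neighbours, and the 3 genes most like each member. Cell type markers are named from their marker lists. Other genes of the lists named beyond these were Dnmt1, Klf2, Dnmt3b, Dnmt3l, Uhrf1, Tet1, Prmt5 and Myc, and the untested Dnmt3a, Fgfr1 and Gata4. These, and the markers singled out from their lists, were chosen after their values were seen. Gene order and promoter windows came from RefSeq (GRCm38.p6). Figures were drawn in Python 3.11.15 with matplotlib 3.10.9.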

Additional observations from a re-analysis of the deposited data

Results flagged for a closer look

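For 2 of the 48 sets of values examined (16 probes in 3 groups), 1 array lay further from the others than the critical value of Dixon's test at 95%, which chance alone does in about 1 of 20 sets. Both were Prdm4-EGFP array 3. The brighter Prdm4 probe had 10.0709 there, against 10.2426 to 10.337 on the other Prdm4-EGFP arrays. The brighter Prdm2 probe had 10.0503 there, against 10.1335 to 10.162. Without this array the counts of called Prdm family genes were the same in all 3 comparisons.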

How the results depend on the processing

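Each result was recomputed under 27 alternatives (other normalisation, background correction, filters, blocks, array weights, fewer arrays). The count of called Prdm family genes was 2 or 3 in null against wild-type cells, 0 in Prdm4-EGFP against wild-type cells and 2 in Prdm4-EGFP against null cells. The third gene was Prdm2, with -0.1973 for its brighter probe in the table normalised by the authors. In null against wild-type cells the brighter Prdm4 probe ranged from -0.73 to -0.59, the dimmer from -3.05 to -1.56 and Prdm14 from -1.11 to -0.73, all called.

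Over all probes, 576 were called in Prdm4-EGFP against wild-type cells. This became 317 without a filter, 319 with only the 2 groups compared and 206 with wild-type arrays 2, 3 and 4 alone as controls, and 329 to 777 when 1 array was left out, the lowest without wild-type array 5. The cause was not tested.

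Some differences that were never called changed sign. In Prdm4-EGFP against wild-type cells the dimmer Prdm4 probe had 0.0325 with median scaling, 4e-04 with array weights, 0.0121 with wild-type arrays 2, 3 and 4 alone, and -0.0432 to 0.0468 when 1 array was left out. In Prdm4-EGFP against null cells the brighter Prdm2 probe had 0.0646 in the deposited table and 0.0163 with median scaling, and the dimmer 0.0135 in the deposited table. Prdm15 had -0.0185 with median scaling and -0.0444 with the replicate block, and -0.0472 to 0.0527 when 1 array was left out, and Mecom -0.0825 to 0.0521.

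The array numbers were not taken as pairs. Deviations from the group means correlated at 0.1035 on average between the 14 same-numbered pairs (-0.0647 to 0.2577, 7 of them above 0.1). Over the 70 pairs with different numbers the average was lower, -0.0203. The best match of 5 of the 16 arrays carried their own number. With the replicate number as a block, 6116 probes were called in null against wild-type cells (6381 without it), 583 in Prdm4-EGFP against wild-type cells and 6882 in Prdm4-EGFP against null cells (7115 without it), and the Prdm family counts were 2, 0 and 2.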

Other observations

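Of 7 further family members and relatives with probes on the array, 1 was tested. Prdm16, a regulator of brown fat and of stem cells, was detected on 5 of 16 arrays, with means of 5.35 ± 0.36 in null cells (SD, n = 4), 5.50 ± 0.34 in Prdm4-EGFP cells (SD, n = 6) and 5.59 ± 0.23 in wild-type cells (SD, n = 6). It differed from wild-type by -0.24 in null cells (SE 0.18, limma adjusted p = 0.293). Prdm6, Prdm8, Prdm11, Prdm12, Prdm13 and Zfpm2 were detected on no array.

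The brighter Prdm4 probe stood 4.16, 4.07, 4.16 and 4.04 above the background limit of the dimmer probe on the 4 null arrays. It stood 2.83 to 3.24 above the dimmer probe itself on the Prdm4-EGFP arrays and 2.80 to 3.21 on the wild-type arrays, on the log2 scale. Different probes bind with different strength, so only the change of this gap between arrays can be read. On the null arrays the gap is a lower bound, because the dimmer probe was not detected there, so the change is a lower bound too.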
